A study of Mus musculus with 12 samples.

Results

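A set of 10 C-type lectin receptor genes, Clec4a1, Clec4a2, Clec4a3, Clec4d, Clec4e, Clec4n, Clec5a, Clec7a, Clec12a and Clec10a, were followed through 12 RNA-seq libraries of bone marrow-derived macrophages (BMDMs). They were picked by symbol from the 23997 genes listed for each library, all 10 symbols were found, and the choice was made with results of these libraries known. BMDMs are macrophages grown in culture from bone marrow. The 4 groups, with 3 libraries each, were untreated WT BMDMs, untreated Pim1-/- BMDMs, WT BMDMs given 100 ng/ml LPS for 4 h, and Pim1-/- BMDMs given the same LPS treatment. All donors were male C57BL/6 mice, 8 to 10 weeks old, and the marrow cells of every group had been grown for 7 days with recombinant human M-CSF at 10 ng/ml. The Pim1-/- mice carry a germline deletion of exons I–V of Pim1, the gene of a serine/threonine kinase, made with CRISPR/Cas9, so the deletion was present throughout macrophage growth and not limited to a cell type. LPS, a component of the outer membrane of Gram-negative bacteria, is the ligand of Toll-like receptor 4. Whether the 3 libraries of a group came from separate mice or separate wells is not given in the sources used here, and the errors measure the spread between these libraries, which may be technical.

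C-type lectin receptors are membrane proteins of myeloid cells that bind sugars and lipids of microbes or dead cells through a C-type lectin-like domain. Some couple to adaptors with an immunoreceptor tyrosine-based activation motif (ITAM), such as the FcRγ chain or DAP12, or carry a shortened ITAM of their own, and activate the kinase Syk, from which the signal passes through protein kinase C-delta to the Card9, Bcl10 and Malt1 complex. Others, such as Clec4a2 (DCIR) and Clec12a (MICL), carry an inhibitory motif (ITIM) that recruits the phosphatases encoded by Ptpn6 and Ptpn11. In macrophages they are known for the uptake and sensing of fungi and mycobacteria and for setting the threshold of inflammatory responses.

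Expression was measured in FPKM, fragments per kilobase of transcript and per a library factor set by the authors' software, so that levels of different genes can be compared per length. The 10581 genes that reached 1 FPKM in 3 or more libraries were fitted together with limma on log2(FPKM + 1), and a gene was called when its difference exceeded 2-fold, its p was under 0.05 and its FDR after Benjamini-Hochberg adjustment was under 0.1. Each of the 10 receptor genes reached at least 1.40 FPKM in every one of the 12 libraries, so none entered the fit through only the group where it was high. Pim1 itself was at 22.9 ± 1.80 FPKM in untreated WT cells and 8.73 ± 0.752 FPKM in untreated Pim1-/- cells, and at 645 ± 17.8 and 219 ± 15.6 FPKM after LPS (SD, n = 3). The log2 difference of Pim1 was −1.30 without treatment (limma, Benjamini-Hochberg adjusted p = 8.4e-11) and −1.56 after LPS (limma, adjusted p = 9.1e-12). The gene values do not separate the deleted exons I–V from the exon that was kept. No 2 libraries were identical, Pearson's r across genes between libraries of a group was 0.998 to 0.999, and genes are not independent replicates. Among values under 0.3 FPKM of genes annotated with 1 transcript, 68.3% to 78.0% lay within 0.07 of a whole number of fragments, where evenly spread values would give 14.0%. The scale of each library was fitted to gather these same values at whole numbers. The 14.0% holds for a scale that was not fitted, so the contrast is no test of the step. From the fitted step 1 FPKM over 1 kb of transcript stood for 37.5 to 45.5 fragments in the untreated libraries and for 20.8 to 31.9 fragments in the LPS libraries. The lowest receptor values rest on an estimated 85 to 114 fragments per library (Clec10a in LPS-treated Pim1-/- cells) and 112 to 127 fragments (Clec4a1 in untreated Pim1-/- cells), which gives counting errors of up to 10.9% and 9.4%. These intervals cover counting error only.

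Of the receptor genes, 9 lie on chromosome 6 and Clec10a lies on chromosome 11 (GRCm38, GENCODE M21). The Clec4 genes form a cluster of 368.0 kb at chr6:122921848-123289870, in the order Clec4a1, Clec4a3, Clec4a4, Clec4b1, Clec4a2, Clec4b2, Clec4n, Clec4d and Clec4e. Clec4e alone is on the − strand, so that Clec4d (chr6:123262111-123275265) and Clec4e (chr6:123281789-123289870) point toward each other across a gap of 6523 bp. Clec5a (chr6:40574894-40585821, − strand), Clec12a (chr6:129342691-129365303, + strand), Clec7a (chr6:129461591-129472779, − strand) and Clec10a (chr11:70156197-70170834, + strand) lie outside it. The coding sequences of the family are alike enough for reads to be shared between some genes. Clec4a2 and Clec4a4 were identical over 77.2% of their aligned coding bases with a longest shared transcript run of 163 nt, Clec10a and Mgl2 over 73.4% with a run of 183 nt, and Clec4a1 and Clec4a3 over 68.7% with a run of 23 nt. How multiply mapped reads were split is not given in the sources used here, so the values of Clec4a2 and Clec10a are uncertain to that extent. Clec4a4 stayed under 1 FPKM in every library and Mgl2 was at 2.67 FPKM or less on average in every group.

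The promoters of 8 receptor genes were found in RefSeq (GRCm38.p6), those of Clec4n and Clec10a were not used. The sequences of 4 genes, picked on different measures, are given. Clec4a1 and Clec4a3 had low values in Pim1-/- cells, while Clec4e and Clec4d had high values in both genotypes after LPS. These 4 are not the extremes of the genotype differences described next. Each sequence runs 5′ to 3′ from 250 bases before the annotated start and is 280 bases long. Clec4a1 is at chr6:122921598-122921877 (+), the second annotated start of Clec4a3 at chr6:122952394-122952673 (+), Clec4d at chr6:123261857-123262136 (+) and Clec4e at chr6:123289842-123290121 (−). Capitals mark matches to the motifs listed after the sequences.
Clec4a1: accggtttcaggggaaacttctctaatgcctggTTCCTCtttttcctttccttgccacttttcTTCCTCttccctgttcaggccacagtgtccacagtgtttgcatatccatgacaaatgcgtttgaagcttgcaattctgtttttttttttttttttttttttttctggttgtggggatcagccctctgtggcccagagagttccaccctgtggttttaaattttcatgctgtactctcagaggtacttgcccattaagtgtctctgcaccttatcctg
Clec4a3: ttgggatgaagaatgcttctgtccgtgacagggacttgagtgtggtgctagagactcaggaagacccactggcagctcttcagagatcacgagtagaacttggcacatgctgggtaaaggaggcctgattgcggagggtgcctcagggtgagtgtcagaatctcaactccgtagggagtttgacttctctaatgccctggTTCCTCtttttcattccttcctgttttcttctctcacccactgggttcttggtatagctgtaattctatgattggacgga
Clec4d: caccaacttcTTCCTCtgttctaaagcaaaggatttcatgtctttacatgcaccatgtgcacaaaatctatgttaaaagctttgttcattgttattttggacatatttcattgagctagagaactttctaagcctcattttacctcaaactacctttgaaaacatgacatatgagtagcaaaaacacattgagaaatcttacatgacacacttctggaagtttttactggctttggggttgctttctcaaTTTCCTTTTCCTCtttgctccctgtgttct
Clec4e: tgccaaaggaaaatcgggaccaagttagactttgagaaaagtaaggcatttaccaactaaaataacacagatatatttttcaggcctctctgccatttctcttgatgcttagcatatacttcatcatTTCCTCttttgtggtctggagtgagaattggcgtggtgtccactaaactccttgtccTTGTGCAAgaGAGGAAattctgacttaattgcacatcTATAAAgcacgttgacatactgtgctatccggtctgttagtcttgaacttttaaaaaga
The letters GAGGAA, the core bound by PU.1, a transcription factor of the macrophage lineage, were searched on both strands and occurred in 8 of the 10 windows of 300 bases that these 8 genes have, against 28.3% of 32851 mouse promoters of that length. Clec4a3 and Clec7a have a pair of windows each, and the windows without a match were that of Clec4a2 and the first of Clec4a3. The windows of each pair overlap, and the Clec7a match is the same site counted in both. Counted by gene, 7 of the 8 had a match. The C/EBP letters TTGCNNAA were found at Clec4e and Clec12a (10.8% of all promoters), the AP-1 letters TGANTCA at Clec4a2 and Clec12a (7.81%), the TATAAA box, searched on the + strand, at Clec4e and Clec4a2 (8.32%), the core of the interferon-stimulated response element (ISRE) at Clec4d (3.44%) and the NF-kappaB consensus at none of the 8 (4.51%). At Clec4e the TATAAA box lay from −29 to −24 with the start counted as 0, and the C/EBP match from −66 to −59 stood beside a PU.1 core from −56 to −51. At Clec4d the ISRE core shared letters with a PU.1 core. Clec4a1 and Clec4a3 shared a run of 17 bases around a PU.1 core, cctggttcctctttttc, which began at −222 in Clec4a1 and at −55 in Clec4a3. These are letter matches, and no binding was measured.

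Between genotypes, 6 of the 10 receptor genes were called lower in untreated Pim1-/- BMDMs than in untreated WT BMDMs, Clec4a1, Clec10a, Clec4a3, Clec4n, Clec7a and Clec4a2, and none was called higher. Of all genes tested, 7.78% were called in this comparison, 3.37% lower and 4.4% higher. After LPS 5 of the 10 were called lower, the same genes without Clec7a, and none higher, where 8.66% of all genes were called, 5.15% lower and 3.51% higher. Since the set was drawn up with these values in view, the counts are a description. The median log2 difference of the 10 genes was −1.46 without treatment and −1.37 after LPS, beside medians of −0.05 and −0.03 over all genes. The other 4 genes, Clec4d, Clec4e, Clec5a and Clec12a, had log2 differences between −0.34 and 0.78 in both comparisons. Values of the 3 Pim1-/- libraries did not overlap those of the 3 WT libraries for 9 of the 10 genes in either comparison, against 78.4% of all genes without treatment and 77.5% after LPS. These are bulk RNA measurements, in which fewer cells of a type and less RNA per cell cannot be told apart.

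**Figure D1:**
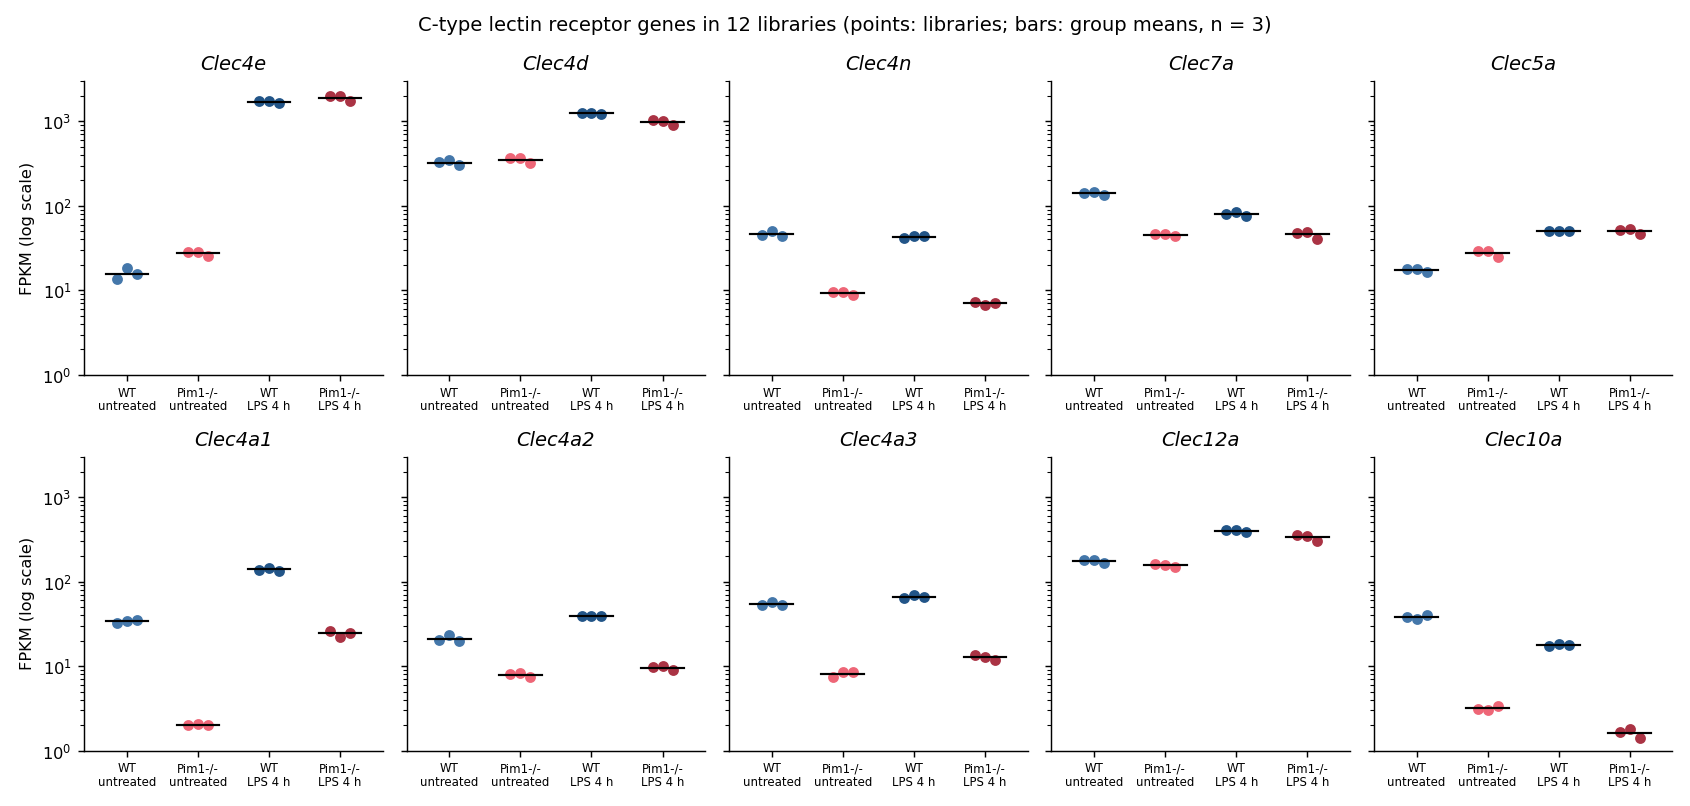
Level of each of the 10 receptor genes in FPKM on a log axis, with 1 point per library and a bar at the mean of the 3 libraries of each group (untreated and LPS-treated WT and Pim1-/- BMDMs). Clec4a1, Clec4a2, Clec4a3, Clec4n, Clec7a and Clec10a were lower in Pim1-/- than in WT libraries with and without LPS, while Clec4e and Clec4d had the highest values after LPS in both genotypes.

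Clec4a1, Clec4a2 and Clec4a3 belong to the DCIR-like branch of the cluster, of which Clec4a2 carries the ITIM. Clec4a1 showed the lowest relative level of the set in untreated knockout cells. Its 3 untreated WT libraries were at 32.7, 34.6 and 34.7 FPKM and its 3 untreated Pim1-/- libraries at 2.03, 2.04 and 2.01 FPKM, a mean of 5.96% of that in WT. With LPS the WT libraries reached 138, 146 and 134 FPKM and the Pim1-/- libraries 26.3, 22.0 and 24.8 FPKM, a mean of 17.5% of that in WT. LPS-treated Pim1-/- cells thus stayed below even untreated WT cells for this gene, with no overlap. The log2 differences were −3.53 and −2.47 (SE 0.057). The spread of the 3 untreated Pim1-/- values was narrower than the counting error given above of that group.

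Clec4a3, the gene next to Clec4a1, was at 52.3, 57.0 and 52.6 FPKM in untreated WT cells and at 7.52, 8.40 and 8.46 FPKM in untreated Pim1-/- cells. With LPS the WT libraries were at 63.7, 69.8 and 66.1 FPKM and the knockout libraries at 13.7, 12.9 and 11.8 FPKM. The knockout libraries lay below the WT libraries throughout, at 15.1% of the WT mean without treatment and 19.2% after LPS (log2 differences −2.59 and −2.29, SE 0.060). Clec4a2, the inhibitory DCIR gene, had the smallest difference of the branch without treatment. It ranged from 19.8 to 23.1 FPKM in untreated WT cells and from 7.39 to 8.37 FPKM in untreated Pim1-/- cells, 37.4% of the WT mean. After LPS its WT range was 38.7 to 39.5 FPKM and its Pim1-/- range 8.92 to 9.99 FPKM, 24.5% of the WT mean. Its log2 difference was −1.31 without treatment and −1.92 after LPS (SE 0.060).

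Clec4n encodes Dectin-2, a receptor for fungal mannans that signals through the FcRγ chain. It was at 45.6, 50.04 and 44.2 FPKM in untreated WT cells and at 9.63, 9.49 and 8.78 FPKM in untreated Pim1-/- cells. After LPS the WT libraries were at 41.8, 44.0 and 43.6 FPKM and the Pim1-/- libraries at 7.35, 6.76 and 7.06 FPKM. Dectin-2 RNA therefore stood at 19.9% of the WT mean without treatment and 16.4% after LPS, with log2 differences of −2.21 and −2.45 (SE 0.053). Clec10a encodes a galactose- and N-acetylgalactosamine-binding receptor used as a marker of alternatively activated macrophages. It was at 37.7, 36.1 and 40.4 FPKM in untreated WT cells and at 3.12, 3.03 and 3.40 FPKM in untreated Pim1-/- cells. LPS-treated WT libraries were at 17.4, 18.3 and 17.8 FPKM and LPS-treated Pim1-/- libraries at 1.66, 1.78 and 1.40 FPKM. Its knockout libraries were at 8.36% of the WT mean without treatment and 9.05% after LPS, with log2 differences of −3.22 and −2.85 (SE 0.062). The largest of the values in knockout cells was below the smallest in WT cells for both genes in both states.

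Clec7a encodes Dectin-1, the beta-glucan receptor, which carries a shortened ITAM in its own tail. Untreated WT libraries were at 142, 146 and 135 FPKM and untreated Pim1-/- libraries at 46.1, 46.1 and 43.9 FPKM, a log2 difference of −1.61 (SE 0.062). After LPS the WT libraries were at 81.1, 85.5 and 76.3 FPKM and the Pim1-/- libraries at 47.8, 49.1 and 40.9 FPKM, a log2 difference of −0.81 that was under the 2-fold threshold. The groups did not overlap in either state, and the knockout cells stood at 32.2% of the WT mean without treatment and 56.7% after LPS.

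**Figure D2:**
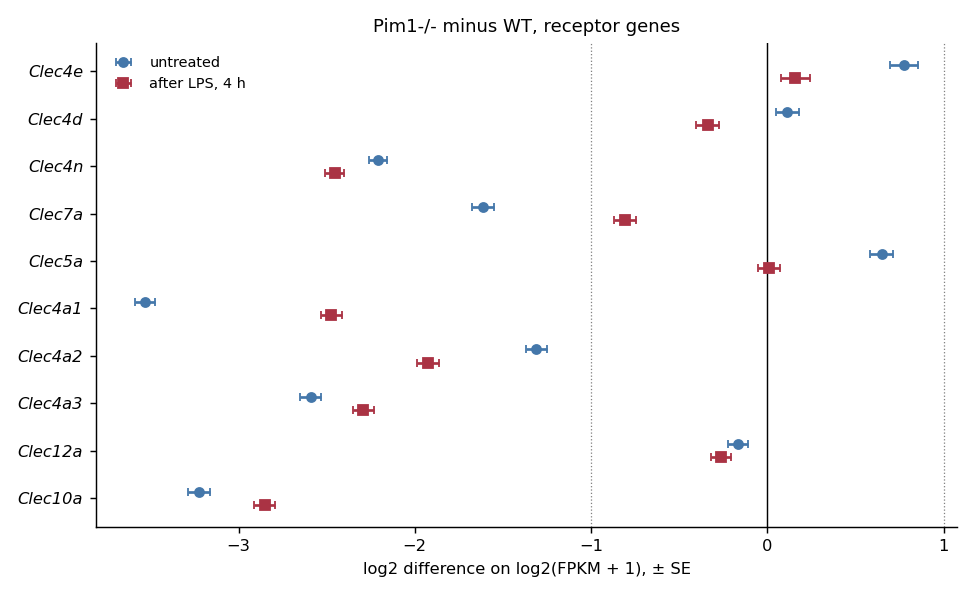
Pim1-/- minus WT difference of each receptor gene on the log2(FPKM + 1) scale, untreated (circles) and after LPS for 4 h (squares), with bars of ± 1 SE from the limma fit and dotted lines at 2-fold. The 6 genes left of −1 without treatment spread from −3.53 for Clec4a1 to −1.31 for Clec4a2, while Clec4d, Clec4e, Clec5a and Clec12a lay between −0.34 and 0.78 in both states.

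The other receptors of the set stood within 2-fold of WT. Clec4e encodes Mincle, the receptor for mycobacterial cord factor, and Clec4d encodes its partner MCL, both coupled to the FcRγ chain. Clec4e was at 13.6, 18.2 and 15.5 FPKM in untreated WT cells and at 28.5, 28.5 and 25.6 FPKM in untreated Pim1-/- cells, with no overlap and a log2 difference of 0.78 (SE 0.081). LPS-treated WT libraries were at 1731, 1727 and 1661 FPKM and LPS-treated Pim1-/- libraries at 1993, 2006 and 1732 FPKM, a log2 difference of 0.16 in which the lowest knockout library exceeded the highest WT library by a narrow margin. Clec4d was at 326, 347 and 304 FPKM in untreated WT cells and at 372, 365 and 321 FPKM in untreated Pim1-/- cells, and these groups overlapped. After LPS Clec4d was at 1249, 1259.5 and 1213 FPKM in WT libraries and at 1025, 1021 and 901 FPKM in knockout libraries, a log2 difference of −0.34 (SE 0.064) with no overlap. Clec5a encodes MDL-1, a receptor that pairs with DAP12. It ranged from 16.4 to 18.0 FPKM in untreated WT and from 25.0 to 29.3 FPKM in untreated Pim1-/- cells (log2 difference 0.65, SE 0.064), and after LPS the ranges of 50.03 to 50.42 FPKM in WT and 46.2 to 53.7 FPKM in Pim1-/- cells overlapped. Clec12a, the ITIM-bearing MICL, ranged from 165 to 180.5 FPKM in untreated WT and from 149 to 163 FPKM in untreated Pim1-/- cells, and from 386 to 412 and from 305 to 355 FPKM after LPS. Its log2 differences were −0.17 and −0.26 (SE 0.057), with no overlap in either state.

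Along the Clec4 cluster the differences were not uniform. Clec4a1, Clec4a3, Clec4a2 and Clec4n were each at 37.4% of the WT mean or less in both states, whereas Clec4d and Clec4e, the last genes of the cluster and 15089 bp or more beyond Clec4n, were between 79.2% and 175% of it. Clec4a4, Clec4b1 and Clec4b2, which lie among them and were looked at as neighbours after the receptor values were known, had little RNA. Clec4b1 was at 3.76 ± 0.417 FPKM in untreated WT and 2.02 ± 0.120 FPKM in untreated Pim1-/- cells (SD, n = 3), a log2 difference of −0.65 that was not called. Clec4a4 was under 1 FPKM in all libraries, and Clec4b2 was listed at 0 in all libraries.

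**Figure D3:**
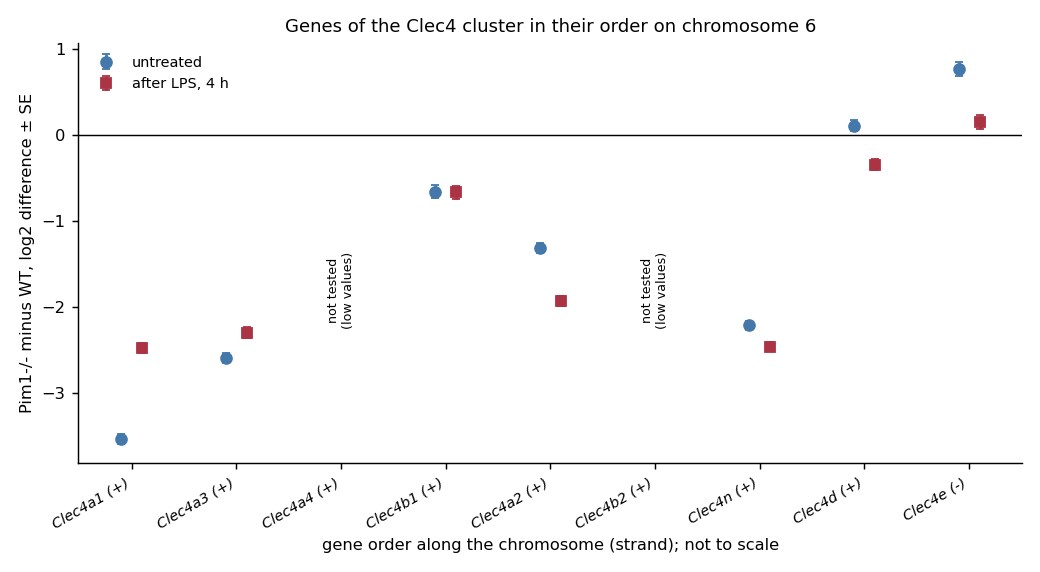
Pim1-/- minus WT difference of the Clec4 genes on the log2(FPKM + 1) scale, ± 1 SE, in their order on chromosome 6 (spacing not to scale), untreated (circles) and after LPS (squares). Clec4a1, Clec4a3, Clec4a2 and Clec4n lie below −1 and Clec4d and Clec4e near or above 0, and Clec4a4 and Clec4b2 had values too low to be tested.

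After LPS, 5 of the 10 receptor genes were called higher and 1 lower in WT BMDMs, while 34.8% of all genes were called, 20.1% higher and 14.7% lower. In Pim1-/- BMDMs 4 were called higher and none lower, beside 25% of all genes called, 14.6% higher and 10.4% lower. Clec4e, Clec4d, Clec4a1 and Clec12a were called higher in both genotypes, Clec5a was called higher in WT cells with a log2 difference of 1.48 and had 0.84 in Pim1-/- cells, and Clec10a was called lower in WT cells with −1.05 and had −0.68 in Pim1-/- cells. Mincle (Clec4e) showed the largest difference of the set. Its mean went from 15.7 ± 2.28 FPKM to 1706 ± 39.2 FPKM in WT cells (SD, n = 3), 108-fold, and from 27.5 ± 1.63 FPKM to 1910 ± 154 FPKM in Pim1-/- cells, 69.4-fold. Its log2 differences were 6.68 and 6.06 (SE 0.081). Clec4d was 3.81-fold higher after LPS in WT and 2.79-fold higher in Pim1-/- cells, Clec12a 2.29-fold and 2.15-fold, and Clec5a 2.89-fold and 1.82-fold. Clec4a1 was 4.11-fold higher in WT and 12.0-fold higher in Pim1-/- cells. Clec10a was at 46.8% of its untreated level in WT and at 50.7% in Pim1-/- cells. Its log2 values of −1.05 and −0.68 lie further apart because the pseudocount of 1 shortens differences between low levels. Clec7a was at 57.4% of its untreated level in WT cells and at 101% in Pim1-/- cells, where the untreated and LPS libraries overlapped. Clec4a2, Clec4a3 and Clec4n were within 2-fold of their untreated level in both genotypes. Values with and without LPS did not overlap for all 10 genes in WT cells (90.4% of all genes) and for 9 of 10 in Pim1-/- cells (83.8%). The medians of the 10 genes were 1.02 in WT and 0.72 in Pim1-/- cells on the log2 scale, and those of all genes 0.00 and −0.01.

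These LPS differences rest on the library scaling. The deposited values summed to between 452511 and 489710 FPKM in untreated libraries. After LPS they summed to between 837585 and 849323 FPKM in WT libraries and to between 713307 and 743912 FPKM in Pim1-/- libraries. When each library was scaled to the same sum, an alternative added after the data were seen, the median of all genes moved to −0.67 in WT and −0.58 in Pim1-/- cells, and the calls became 3 higher and 2 lower in WT and 2 higher and 1 lower in Pim1-/- cells. Under quantile normalization, with medians of −0.17 and −0.18, they were 2 higher and 2 lower in WT and 2 higher and none lower in Pim1-/- cells. Clec4e and Clec4a1 were called higher in both genotypes under every scaling tried, with log2 differences of at least 5.41 and 1.15. Clec12a fell short of the threshold in both genotypes under equal sums (0.38 and 0.44) and under quantile normalization (0.02 and 0.24), and Clec5a in WT cells (0.70 and 0.92). Clec4d stayed past it under equal sums in WT cells (1.12) and fell short in Pim1-/- cells (0.81) and under quantile normalization (0.89 and 0.57). Clec7a was called lower in WT cells under both (−1.60 and −1.81). The small values of Clec4a3 in both genotypes and of Clec4a2 and Clec7a in Pim1-/- cells changed sign under equal sums. The genotype calls of the receptor genes were the same under each of these scalings. Under equal sums the genotype differences after LPS moved up, the called ones included. Those called became −2.26 for Clec4a1, −1.71 for Clec4a2, −2.08 for Clec4a3, −2.23 for Clec4n and −2.59 for Clec10a. Under quantile normalization they were −2.01, −1.59, −1.87, −2.06 and −2.58 in the same order. The uncalled ones became −0.13 for Clec4d, 0.37 for Clec4e, 0.21 for Clec5a, −0.05 for Clec12a and −0.60 for Clec7a under equal sums, and the median of all genes 0.12. Overlaps, percents of the WT mean and list medians were read on the values as deposited.

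**Figure D4:**
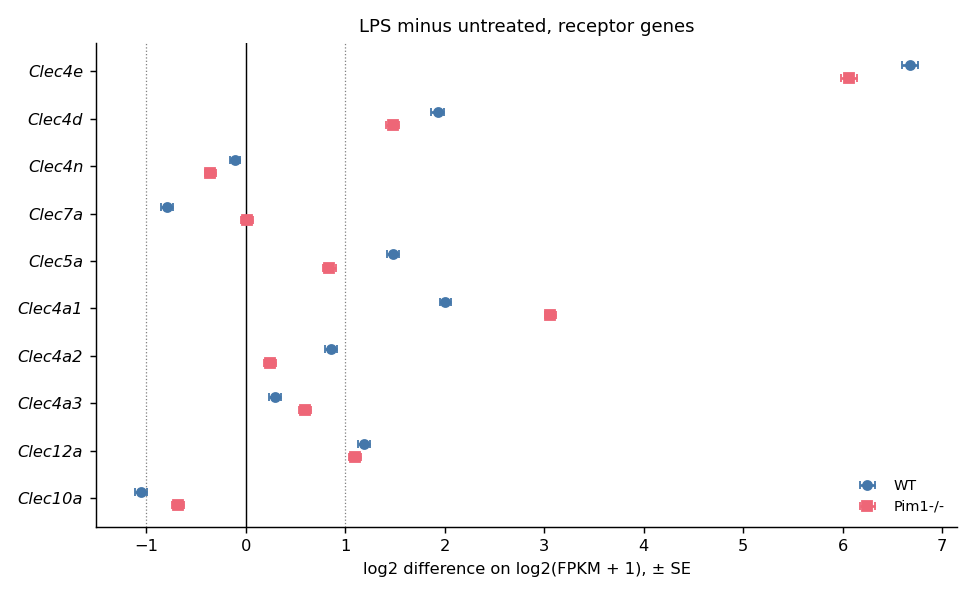
LPS minus untreated difference of each receptor gene on the log2(FPKM + 1) scale as deposited, in WT (circles) and Pim1-/- BMDMs (squares), with bars of ± 1 SE and dotted lines at 2-fold. Clec4e lies at 6.68 and 6.06, Clec4a1 is the gene whose Pim1-/- value exceeds its WT value by more than 2-fold, and under equal library sums the signs of Clec4a3 in both genotypes and of Clec4a2 and Clec7a in Pim1-/- cells turn.

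The response to LPS differed between genotypes by more than 2-fold for 1 of the 10 genes, Clec4a1, with a difference of the log2 responses of 1.06 (SE 0.081), while 6.67% of all genes were called, 2.24% higher and 4.43% lower. This comparison shares its libraries with the others. Clec7a had a difference of 0.81 and Clec10a of 0.37, and Clec5a (−0.64), Clec4e (−0.62), Clec4a2 (−0.61) and Clec4d (−0.45) had smaller responses in Pim1-/- cells. With a pseudocount of 0.1 the difference of Clec10a was 0.15. The median of the 10 genes was −0.17, beside 0.00 over all genes. Relative to untreated cells Clec4a1 came closer to WT after LPS, from 5.96% to 17.5% of the WT mean, as did Clec7a, whereas Clec4a2 and Clec4n stood further from it. Under quantile normalization the direction turned for Clec4n, whose difference in response was −0.25 as deposited and 0.46 under quantiles, neither of them called.

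The top of the order of levels within the set was the same in both genotypes and differed with LPS. In untreated WT cells Clec4d (326 FPKM), Clec12a (175 FPKM) and Clec7a (141 FPKM) led, followed by Clec4a3, Clec4n, Clec10a, Clec4a1, Clec4a2, Clec5a and Clec4e, and of these neighbours only Clec5a and Clec4e overlapped between libraries. In untreated Pim1-/- cells Clec4d, Clec12a and Clec7a led again and Clec4a1 was last, with overlaps between Clec5a and Clec4e and between Clec4a3 and Clec4a2. After LPS Clec4e came first and Clec4d second in both genotypes, Clec10a was last, and the overlapping neighbours were Clec5a and Clec7a in Pim1-/- cells. The summed level of the 10 genes was 869 ± 40.8 FPKM in untreated WT, 640 ± 40.1 FPKM in untreated Pim1-/-, 3785 ± 84.3 FPKM in LPS-treated WT and 3380 ± 260.2 FPKM in LPS-treated Pim1-/- cells (SD, n = 3). Clec4d and Clec4e made up 38.6% to 40.1%, 58.3% to 59.96%, 77.7% to 78.0% and 85.5% to 85.8% of that sum in the same order.

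Over the 12 libraries, on log2(FPKM + 1), the likeness of each receptor gene to the others was taken as Pearson's r. The nearest receptor gene to Clec4e was Clec4d (r = 0.985), to Clec4d it was Clec12a (0.988) and to Clec5a it was Clec4e (0.953). Clec4n and Clec10a were each other's nearest (0.975), as were Clec4a2 and Clec4a3 (0.959), and Clec7a was nearest to Clec10a (0.964). Clec4a1 had the weakest best match, Clec4a2 with 0.881. Outside the set, the gene with the highest r to Clec4a1 was H2-Aa, an MHC class II chain, with 0.999 and mean levels of 109, 43.5, 179.6 and 94.9 FPKM in untreated WT, untreated Pim1-/-, LPS-treated WT and LPS-treated Pim1-/- cells. The gene most like Clec4n was Sepp1, which encodes the plasma selenium carrier selenoprotein P (0.996), with 3593, 473, 2621 and 358 FPKM, and the gene most like Clec10a was Fcgrt, the neonatal Fc receptor (0.998), with 82.2, 15.4, 52.3 and 10.5 FPKM in the same order. The others were Itm2c for Clec4a2, Pla2g7 for Clec4a3, Capza2 for Clec4d, Rfwd2 for Clec4e, Vdac3 for Clec5a, Serinc3 for Clec7a and Cd52 for Clec12a, with r from 0.992 to 1.000. The 12 points share 4 group means and the library scaling, and these r values describe likeness of pattern only.

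The genes through which these receptors are known to signal were taken as a list of 20, all of which were tested. Without treatment 1 of the 20 was called lower in Pim1-/- cells, Vav2, a guanine nucleotide exchange factor, with a log2 difference of −1.07 (limma, Benjamini-Hochberg adjusted p = 3.2e-09), and none higher. After LPS 1 was called lower, Vav1, of the same family of exchange factors, with −1.26 (limma, adjusted p = 4.1e-12), and none higher. These counts stand beside 3.37% and 5.15% of all genes called lower. The list's median log2 difference was −0.30 without treatment and −0.54 after LPS, and those of all genes −0.05 and −0.03. Of the 7 kinases all had values below 0 in both comparisons, with medians of −0.30 and −0.87, and without a fold threshold 15 of the 20 genes passed an FDR under 0.05 without treatment and 16 after LPS, 14 and 15 of them lower. At that threshold 74.7% and 77.4% of all genes passed, 42% and 41.7% of all genes with lower values. The totals are near the background, while the 14 and 15 lower genes of the 20 are a larger share than among all genes. This lean of the list was not tested.

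The adaptor genes showed no call between genotypes. Fcer1g, which encodes the FcRγ chain needed by Mincle, MCL and Dectin-2, was at 1687 ± 50.2 FPKM in untreated WT and 1740 ± 23.3 FPKM in untreated Pim1-/- cells (SD, n = 3). After LPS it was at 3720 ± 118 and 2899 ± 39.1 FPKM, a log2 difference of −0.36. Tyrobp, which encodes DAP12, ranged between 2526 and 2895 FPKM over the 12 libraries, and Hcst, which encodes DAP10, between 25.2 and 32.4 FPKM. Syk had a log2 difference of −0.88 without treatment and −0.70 after LPS, under the 2-fold threshold in both. LPS raised 9 genes of the list in WT cells and lowered 3, and in Pim1-/- cells it raised 6 and lowered 2, beside 20.1% of all genes called higher and 14.7% lower in WT cells and 14.6% and 10.4% in Pim1-/- cells. Under equal library sums 4 genes were called higher and 4 lower in WT cells, and 3 higher and 5 lower in the knockout, where 11.1% and 35% of all genes were called higher and lower in WT cells and 9.09% and 26.3% in the knockout. Under quantile normalization 4 were called higher and 4 lower in WT cells, and 3 higher and 2 lower in the knockout, against 15.5% and 17.1% of all genes in WT cells and 12.3% and 12.8% in the knockout. As deposited, Src (log2 difference 5.52 in WT and 4.87 in Pim1-/- cells), Malt1 (5.07 and 4.76), Lyn (2.15 and 1.49), Syk (1.83 and 2.004), Prkcd (1.23 and 1.10) and Bcl10 (1.21 and 1.28) rose in both genotypes, and Inpp5d (−4.31 and −3.48), the gene of the SHIP1 phosphatase, and Card9 (−1.74 and −1.01) fell in both. Fcer1g (1.14), Fgr (1.24) and Ptpn11 (1.19) rose and Vav2 (−1.84) fell past the threshold in WT cells. Src reached 1 FPKM in LPS libraries only, and Fgr in LPS-treated WT libraries only. Both entered the fit through groups where they were high, and their calls, also in the counts, are a description. Src, Malt1 and Inpp5d kept their calls in both genotypes under equal sums, quantiles and median ratios. Prkcd and Bcl10 lost theirs in both genotypes under equal sums and under quantiles, as did Lyn in Pim1-/- cells and Fcer1g and Ptpn11 in WT cells. Syk lost its call in WT cells under quantiles, Fgr in WT cells under equal sums, and Card9 in Pim1-/- cells under median ratios. No gene of the list was called for a difference in LPS response, although 15 of the 20 had an unadjusted p under 0.05 and the same number an FDR under 0.05 with no fold threshold in limma, the only tool run, where 65.9% and 62.9% of all genes did.

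**Figure D5:**
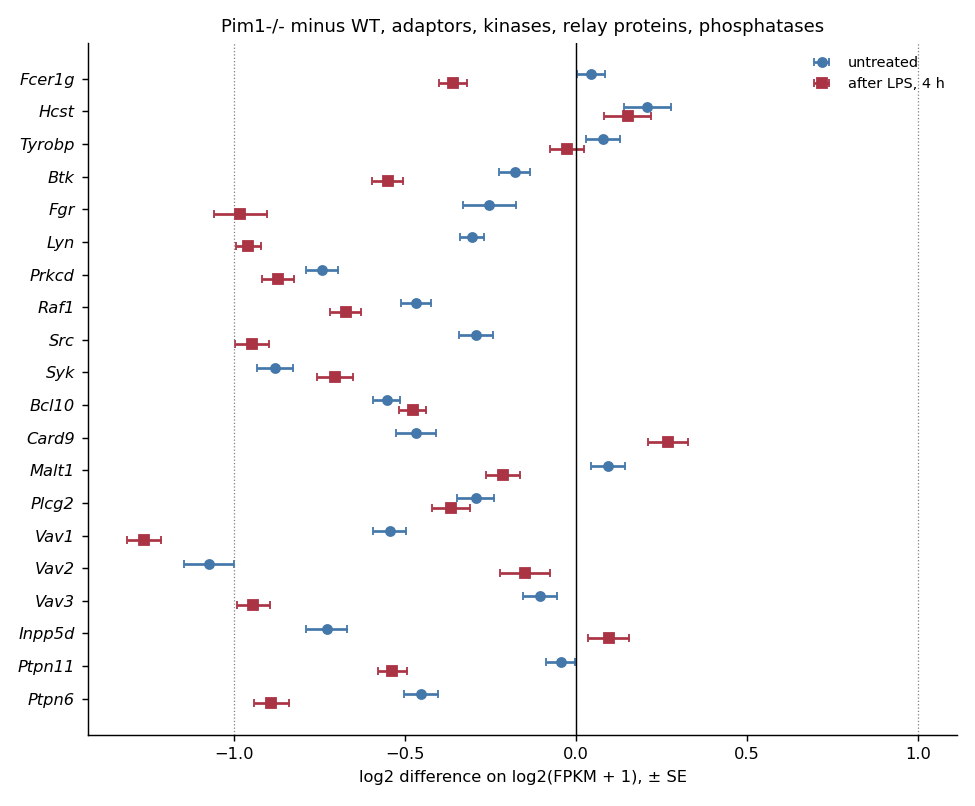
Pim1-/- minus WT difference of the 20 signalling genes on the log2(FPKM + 1) scale, untreated (circles) and after LPS (squares), ± 1 SE, grouped from top to bottom as adaptors, kinases, relay proteins and phosphatases, with dotted lines at 2-fold. Vav2 without treatment and Vav1 after LPS pass −1, and the 7 kinases lie below 0 in both states.

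Of 49 other genes with a C-type lectin domain, 11 had enough RNA to be tested. Without treatment 4 of these were called lower in Pim1-/- cells and none higher, beside 3.37% and 4.4% of all genes, and after LPS 1 was called lower and none higher, beside 5.15% and 3.51%. Values were below 0 for 10 of the 11 without treatment and for 8 after LPS. Clec2d and Mrc1 were named for their values, so their differences are a description with no p-value. Clec2d, a ligand of NK cell receptors, was at 31.8 ± 0.702 FPKM in untreated WT and 8.47 ± 0.712 FPKM in untreated Pim1-/- cells (SD, n = 3). Its log2 difference without treatment was −1.796, and after LPS it was at 159 ± 7.04 and 102 ± 1.89 FPKM. The LPS response of Clec2d was larger in Pim1-/- cells by 1.16 on the log2 scale. Mrc1, the mannose receptor, was at 88.2 ± 5.86 and 31.4 ± 1.62 FPKM without treatment (log2 difference −1.46) and at 53.3 ± 3.02 and 29.0 ± 1.91 FPKM after LPS. Mgl2, the paralog of Clec10a, was at 2.67 ± 0.362 and 0.258 ± 0.052 FPKM without treatment (log2 difference −1.54), and it was the gene called after LPS, with −1.16. It reached 1 FPKM in WT libraries only and so entered the fit through the groups where it was high. Its calls, also in the counts above, are a description. Its transcript shares a run of 183 nt with that of Clec10a, and whether Clec10a reads add to its values was not tested. Colec12, named because the count is small, had −1.08 without treatment. Cd69, an early activation antigen, had the highest level of these genes, 1296 ± 32.3 FPKM in LPS-treated WT cells and 1010.5 ± 75.7 FPKM in LPS-treated Pim1-/- cells, and under 1 FPKM in both without treatment. The median log2 difference of the 11 genes was −0.39 without treatment and −0.55 after LPS.

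Of 52 cell type markers 23 had enough RNA to be tested. Without treatment 5 were called lower and 1 higher in Pim1-/- cells, beside 3.37% and 4.4% of all genes, and after LPS 6 lower and 1 higher, beside 5.15% and 3.51%. All 10 macrophage markers were tested, and all 10 had values below 0 in both genotype comparisons. Their median log2 differences were −0.74 without treatment and −0.86 after LPS, beside −0.05 and −0.03 over all genes. Of these markers Csf1r, Fcgr1 and Mertk were called lower in Pim1-/- cells with and without LPS, with log2 differences from −2.14 to −1.32. Csf1r, the M-CSF receptor gene, was at 764 ± 23.4 FPKM in untreated WT and 254 ± 21.3 FPKM in untreated Pim1-/- cells (SD, n = 3). The summed level of the macrophage list, most of it Lyz2, was 27890 to 29940 FPKM in untreated WT, 14404 to 15321 FPKM in untreated Pim1-/-, 30807 to 31301 FPKM in LPS-treated WT and 15922 to 17785 FPKM in LPS-treated Pim1-/- libraries. Of 7 monocyte markers F13a1 and Ccr2 were called lower without treatment and F13a1 after LPS, and the list summed to 27.5 to 28.5, 21.5 to 22.0, 13.1 to 13.8 and 8.42 to 9.98 FPKM in the same order. Of 9 dendritic cell markers, which summed to 23.6 to 27.3, 62.7 to 70.1, 15.6 to 17.4 and 32.3 to 37.0 FPKM, Cd24a made up most and was called higher in both comparisons (1.49 and 1.44), and Batf3 was called lower after LPS. The 9 neutrophil markers found summed to at most 8.31 FPKM in any library, with S100a9 called lower after LPS and Retnlg at 0 in all groups, the 5 B cell markers to at most 1.57 FPKM with Pax5 at 0 in all groups, the 5 mast cell and basophil markers to at most 2.76 FPKM with Fcer1a at 0 in all groups, and the 6 T and NK cell markers to at most 0.0199 FPKM. F13a1 and Batf3 reached 1 FPKM in WT libraries only, and S100a9 in LPS-treated WT libraries only. These genes entered the fit through groups where they were high, and their calls, also in the counts, are a description. S100a8, the other neutrophil marker tested, was not called between genotypes, with log2 differences of 0.95 without treatment and −0.02 after LPS. The part of the macrophage, monocyte and dendritic cell markers in the receptor values was not tested.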

How the data were processed

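Stranded mRNA libraries of 12 BMDM cultures were sequenced on an Illumina NovaSeq. Per the labels, the submitters' processing notes name bcl2fastq 2.20.0.422, cutadapt 1.18, TopHat2 2.0.13, Cuffdiff 2.2.1 and the build mm10, whereas the methods text names a rat genome. Annotation, library normalization and the treatment of multiply mapped reads were not given in the sources used here. Values were deposited by the authors, 1 per gene and library, without a unit, and were read as FPKM from the use of Cuffdiff, the decimals and the column sums of 452511 to 849323.

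Values were used as deposited. Genes at 1 FPKM or more in at least 3 of the 12 libraries (10581 of 23997) were fitted on log2(FPKM + 1), a scale that understates differences of low genes, as 4 group means with a mean-variance trend in limma 3.58.1 (R 4.3.3), two-sided, with Benjamini-Hochberg adjustment over all genes. The script was tested on simulated data. Fragments behind a value were estimated from the steps of low values, with transcript lengths shortened by 180 nt, since FPKM holds no counts. Groups came from GEO's titles.

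The receptor genes, the signalling, lectin and marker lists and the thresholds were chosen with earlier results of these data known. The adjusted p-values given for Vav1 and Vav2 are therefore a description too. No p-value is given for a receptor gene. Named beside the 10 receptor genes were Pim1, the 3 adaptors and every called gene of the signalling list, at most 3 other lectin genes by level and 3 by size of a called change in each genotype comparison, and the gene most like each receptor gene. Colec12 and the neighbours Clec4a4, Clec4b1 and Clec4b2 were added after their values were seen. The neutrophil list had 10 markers, of which 9 were found. A gene of the signalling list is not reported here, and the counts leave it out.

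Libraries of different groups share replicate numbers. Deviations of same-numbered libraries from their group means were correlated over 3646 genes at 10 FPKM or more in every library. Pearson's r was 0.326, 0.37 and 0.456 between genotypes without treatment and 0.426, 0.541 and 0.683 for the LPS effect in Pim1-/- cells. It was 0.0203, 0.366 and 0.191 between genotypes after LPS and −0.103, 0.141 and 0.191 for the LPS effect in WT cells. Untreated WT with LPS-treated Pim1-/- libraries had 0.0258, 0.455 and 0.519, and untreated Pim1-/- with LPS-treated WT libraries −0.165, 0.486 and 0.212. Differently numbered libraries were not compared, so these values cannot settle whether the numbers pair libraries.

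Alternatives were a pseudocount of 0.1, a filter at 5 FPKM or none, scaling by median ratios or quantiles, fitting each pair of groups alone, no trend, the replicate block, an FDR under 0.05 with no fold threshold and leaving out each library. Equal library sums were added after the data were seen. Promoters and coding sequences were read from RefSeq and GENCODE M21 with Python 3.11.15 and Biopython 1.88. No protein sequence was used here.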

Additional observations from a re-analysis of the deposited data

Results flagged for a closer look

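The LPS response of Clec4a1 differed between genotypes by a tested difference of responses, which was more than 2-fold. Its log2 response to LPS was 2.01 in WT BMDMs and 3.06 in Pim1-/- BMDMs, a difference of 1.06 (SE 0.081), and it ranged from 1.00 to 1.13 when each library was left out in turn. The gene was chosen with these values known, so the difference is given as a description with no p-value. In Pim1-/- cells the untreated level it starts from was 2.03 ± 0.0177 FPKM (SD, n = 3), where the pseudocount of 1 shortens the response.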

How the results depend on the processing

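No receptor call between genotypes was lost under any scaling, filter, pseudocount or left-out library tried, no called receptor value reversed, and leaving out each library ended no receptor call in any comparison. The replicate block also changed no receptor call, with 6 receptor genes called without treatment and 5 after LPS and 1 for the difference in LPS response. Under quantile normalization 2 receptor genes were called for LPS in Pim1-/- cells (Clec4a1 and Clec4e) and 4 for the difference in LPS response (Clec4a1 with 1.96, Clec4a3, Clec7a and Clec10a); the cause was not tested. With an FDR under 0.05 and no fold threshold the receptor counts were 8 after LPS, 9 for LPS in Pim1-/- cells and 9 for the difference, and the signalling counts 15 between untreated genotypes, 16 after LPS, 18 for LPS in Pim1-/- cells and 15 for the difference, since the threshold on size was dropped. Of all genes, 74.7%, 77.4%, 84.6% and 62.9% passed there in the same order of comparisons. A pseudocount of 0.1 gave 3 signalling genes after LPS (Vav1, Fgr and Vav3). Calls of Fgr are a description, since it reached 1 FPKM in LPS-treated WT libraries only. Fgr was called after LPS beside Vav1 without the second LPS-treated WT library or the first LPS-treated Pim1-/- library (range 1 to 2 over left-out libraries), and in place of Vav1 under quantile normalization. That scaling also gave 5 signalling genes for LPS in Pim1-/- cells. The pseudocount of 0.1 gave 1 for the difference, Vav2, as did equal FPKM sums (1) and leaving out the third untreated Pim1-/- library (range 0 to 1 over left-out libraries). Small uncalled values changed sign, among them Clec5a between genotypes after LPS (−0.03 to 0.07 over left-out libraries) and Clec12a after LPS under quantile normalization (0.01). Depth limits the knockout values of Clec4a1 and Clec10a, with estimated counting errors of up to 9.4% and 10.9%.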
